A study of Mus musculus with 4 samples.

Results

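The genes described are those of the D-type cyclins (Ccnd1, Ccnd2 and Ccnd3) and of the inhibitors of cyclin-dependent kinases (Cdkn1a, Cdkn1b and Cdkn1c of the CIP/KIP family, and Cdkn2a, Cdkn2b, Cdkn2c and Cdkn2d of the INK4 family). They were taken by gene name from the design of the array, which gave 10 genes with 16 of the 55670 non-control probes analysed. The groups were NIH3T3 cells that expressed a deletion mutant of EGFR (2 arrays) and NIH3T3 cells that expressed wild-type EGFR (2 arrays), both at steady state. NIH3T3 is an immortalised line of mouse embryonic fibroblasts, and EGFR is a receptor tyrosine kinase that signals through RAS and ERK among other routes. Per the labels all 4 samples thus expressed a receptor named as EGFR, and neither a parental line nor a ligand treatment was among the samples analysed here. What was deleted, which species the receptor came from, how it was expressed and whether the cells were 1 clone is not stated by the labels. They mention independent preparations of cDNA and not separate cultures, so the spread behind each p-value is that of these arrays and may be technical. The number of arrays limits the precision. The groups occupied different columns of a single slide, and an effect of the column cannot be told apart from one of the receptor.

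D-type cyclins bind CDK4 or CDK6 and start the phosphorylation of the retinoblastoma protein, which releases E2F factors and lets a cell pass from G1 into S phase. They are the cyclins that answer to mitogens, and in fibroblasts Ccnd1 is known as a delayed early target of the RAS and ERK cascade. INK4 proteins bind CDK4 and CDK6 and block their binding to D-type cyclins, whereas CIP/KIP proteins bind cyclin-CDK complexes, inhibit those of CDK2 and also help to assemble those of the D-type cyclins. NIH3T3 cells are known to lack the Cdkn2a locus, which encodes p16INK4a and p19ARF.

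Levels below are log2 of the processed brightness of a probe minus the 75th percentile of its array, so that a level of 0 is the brightness of that percentile. Each value compares 1 probe between arrays, since the brightness of different probes is not a measure of relative abundance. A probe was tested when both arrays of 1 group, or all 4, read it well above background, and a gene was represented by its brightest such probe. Of the 10 genes, 7 were tested, and 3 (Cdkn1c, Cdkn2a and Cdkn2b) were at background. At an adjusted p under 0.05 by limma, Ccnd1, Cdkn1a and Cdkn2d were higher and Cdkn1b was lower in the deletion-mutant cells, while Ccnd2, Ccnd3 and Cdkn2c did not pass. Across the 18093 features tested, 58.8% passed, 34.6% as higher and 24.2% as lower, so 4 of 7 is near the share of the whole array. The median log2 fold change of the 7 genes was 0.02, against 0.07 for all features. At least 2-fold changes were made by Ccnd1 alone of the 7 genes, and 5.94% of all features passed as at least 2-fold higher and 7.46% as at least 2-fold lower.

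**Figure D1:**
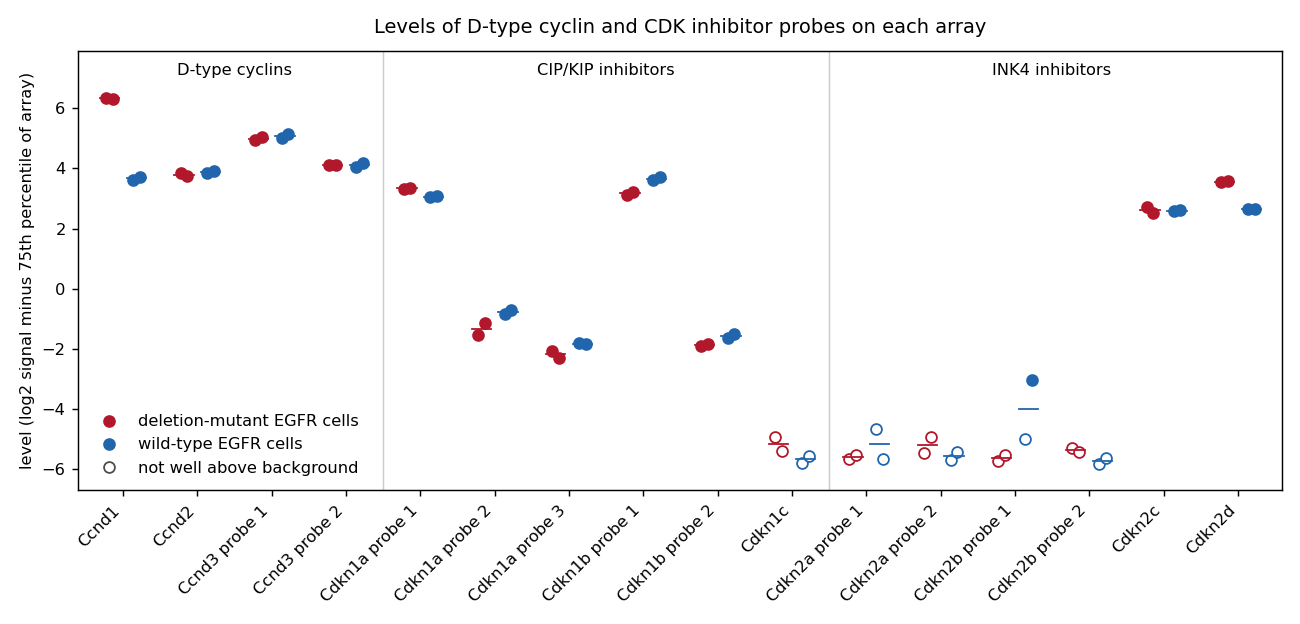
Level of each of the 16 probes (log2 signal minus the 75th percentile of the array) on the 2 deletion-mutant arrays and the 2 wild-type arrays. Points are arrays, bars are group means, and open points were not well above background. Ccnd1 lies at 6.36 and 6.32 in deletion-mutant cells and at 3.63 and 3.71 in wild-type cells, and the probes of Cdkn1c, Cdkn2a and Cdkn2b lie near the bottom on nearly every array.

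The samples were like those of a fibroblast line by their markers. All 9 fibroblast markers examined were well above background on all 4 arrays, 6 of them lower and 1 higher in the deletion-mutant cells. Of the markers of other cell types, Epcam, Cdh1, Ptprc and Cdh5 were among those at background. The endothelial Kdr, the leukocyte Cd68 and Cd3e and the adipocyte Pparg were well above background on all 4 arrays and did not pass. Kdr had levels of 2.64 and 2.68 in deletion-mutant cells and of 2.75 and 2.63 in wild-type cells. Other markers of those types did differ. The epithelial Krt8, at background in wild-type cells, was at least 2.79-fold higher and Krt14 was 1.33-fold lower. The leukocyte integrin Itgam had levels of 4.18 and 4.18 in deletion-mutant cells, against 5.05 and 5.15 in wild-type cells, and was 1.89-fold lower. The endothelial Pecam1 was 1.32-fold lower, and of the adipocyte markers Lpl was 3.53-fold and Fabp4, at background in deletion-mutant cells, at least 2.62-fold lower. The numbers well above background on all 4 arrays were 1 of 7 for epithelium, 3 of 7 on the array for leukocytes, 2 of 6 for endothelium, 0 of 5 for skeletal muscle and 2 of 5 for adipocytes. The part of these shifts in the values below was not tested. The share of probes well above background was 43.8% and 42.9% on the deletion-mutant arrays and 46.9% and 45.3% on the wild-type arrays, and no spot of these 16 probes was saturated.

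Ccnd1, the D-type cyclin best known as a target of growth factor signalling, rose the most of the 7 genes. The probe that read it lies at chr7:152116202-152116261 on the minus strand of mm9. No annotation of mm9 was used, so the exon or untranslated part that a probe matches was not assigned for any gene. Its 30 last bases are shown because the largest change in the set rests on this single probe.
Ccnd1: gttttgtgttaattacagcattgtgctaat
The processed brightness of Ccnd1 was 26843 and 28158 units on the deletion-mutant arrays, against 4274 and 4805 units on the wild-type arrays. Its level averaged 6.34 ± 0.026 in deletion-mutant cells and 3.67 ± 0.057 in wild-type cells (SD, n = 2 each). Both deletion-mutant arrays stood far above both wild-type arrays, by many times the distance between arrays of a group. The difference was 2.67 on the log2 scale (SE 0.062, 95% interval 2.50 to 2.84), a 6.36-fold rise with an interval of 5.65 to 7.15 (limma, adjusted p = 0.000175). Only 104 of the 18093 features had a higher log2 fold change, and 1.73% had a larger one in absolute size.

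Ccnd2 and Ccnd3, the other D-type cyclins, did not pass the test. Ccnd2, read by a probe at chr6:127098696-127098755 on the minus strand, had levels of 3.84 and 3.74 in deletion-mutant cells, against 3.86 and 3.90 in wild-type cells. The groups did not overlap but lay closer together than the 95% interval is wide, with a log2 fold change of -0.08 (SE 0.065, interval -0.26 to 0.10, limma adjusted p = 0.329). Ccnd3 was read by 2 probes. The brighter, at chr17:47736579-47736638 on the plus strand, had levels of 4.96 and 5.03 in deletion-mutant cells and of 5.0 and 5.15 in wild-type cells, so the groups overlapped. Its log2 fold change was -0.08 (SE 0.078, interval -0.29 to 0.14, limma adjusted p = 0.439). The other Ccnd3 probe, at chr17:47736267-47736326, gave 4.12 and 4.10 in deletion-mutant cells and 4.06 and 4.18 in wild-type cells, a log2 fold change of -0.01 (interval -0.21 to 0.19 when every probe was fitted). These intervals leave room for small changes in both genes, and a p that misses the threshold does not show that the levels were the same. Under quantile normalization and under scaling to the probes detected on all 4 arrays both genes passed as lower, Ccnd2 with log2 fold changes of -0.32 and -0.28 and Ccnd3 with -0.32 and -0.27.

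The unequal change of the D-type cyclins does not depend on a scaling by 1 constant per array, which cancels in a ratio of probes within an array. The log2 ratio of the Ccnd1 signal to the Ccnd2 signal was 2.52 and 2.58 on the deletion-mutant arrays, against -0.23 and -0.18 on the wild-type arrays, a difference of 2.75. The ratio of Ccnd1 to Ccnd3 was 1.40 and 1.29 on the deletion-mutant arrays, against -1.37 and -1.44 on the wild-type arrays, also a difference of 2.75. Only the change of such a ratio between groups has a meaning, since its size depends on the probes. With 2 arrays a group, an exact two-sided permutation test cannot go below 0.333, and it gave that value for both ratios.

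**Figure D2:**
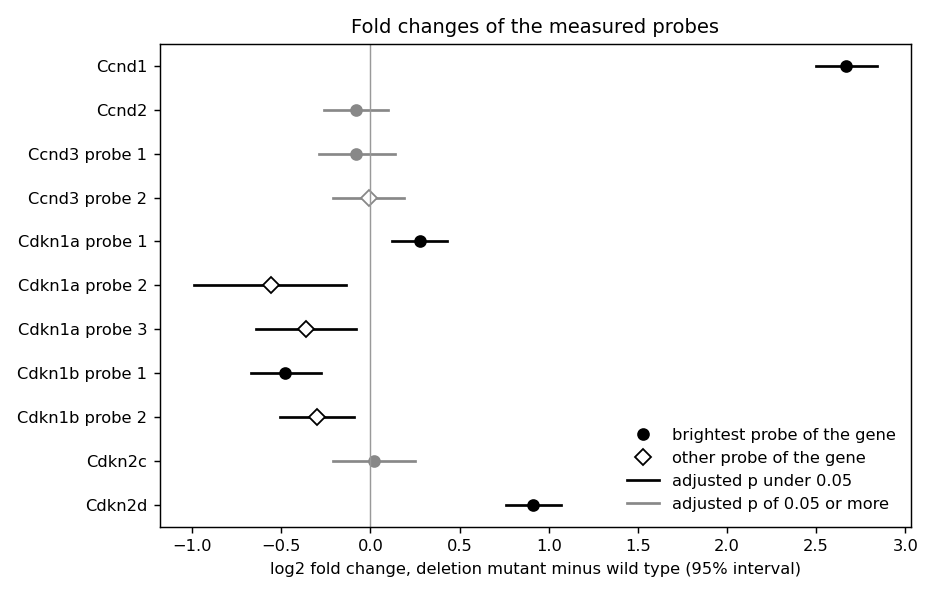
Log2 fold change, deletion mutant minus wild type, with its 95% interval for the 11 probes tested. Circles are the brightest probe of a gene and diamonds its other probes, fitted with every probe as a feature, and black marks an adjusted p under 0.05. Ccnd1 lies at 2.67 and Cdkn2d at 0.91, and the 3 probes of Cdkn1a fall on both sides of 0.

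Of the CIP/KIP inhibitors, Cdkn1b (p27) fell and Cdkn1a (p21) gave opposite answers from different probes. The sequences of the probes are shown because those of Cdkn1a differed in direction, with those of Cdkn1b, which ran the same way, beside them. They are the 30 last bases of each probe. Capitals mark, as a description only, the last ATG (the letters of a start codon) of Cdkn1a probe 2 and the AATAAA (those of a polyadenylation signal) of Cdkn1a probe 3, and any ATG in the other probes is left in lower case.
Cdkn1b probe 1: ataatttttgtaatgtgtgaaaaagatgcc
Cdkn1b probe 2: aaagcactcgtgcagatatgctgcatatga
Cdkn1a probe 1: gctgatcctttctcagtgttgaataccgtg
Cdkn1a probe 2: tcttgtgtttcagccacaggcaccATGtcc
Cdkn1a probe 3: acgtcccactttgccagcagAATAAAaggt

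Cdkn1b, an inhibitor of CDK2 that accumulates in quiescent fibroblasts, had levels of 3.13 and 3.23 in deletion-mutant cells, against 3.61 and 3.71 in wild-type cells, at its brighter probe (chr6:134875424-134875483, plus strand). Both deletion-mutant arrays were below both wild-type arrays. The log2 fold change was -0.48 (SE 0.072, interval -0.67 to -0.28), a 1.39-fold fall (limma, adjusted p = 0.00681). Its second probe, at chr6:134873606-134873665, ran the same way with levels of -1.92 and -1.83 in deletion-mutant cells, against -1.63 and -1.52 in wild-type cells. There the log2 fold change was -0.30 (SE 0.075, adjusted p = 0.0302 by limma with every probe fitted). A larger absolute log2 fold change was found in 39.9% of features, so the fall of Cdkn1b was of a common size on these arrays.

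Cdkn1a, a target of p53 that inhibits CDK2, passed as higher at its brightest probe, at chr17:29237377-29237436 on the plus strand. This probe had levels of 3.33 and 3.35 in deletion-mutant cells, against 3.04 and 3.09 in wild-type cells. It was spotted many times, with 9 spots used on the first deletion-mutant array and 10 on each of the others. Single spots ran from 3.21 to 3.47 and from 3.25 to 3.45 on the deletion-mutant arrays, against 2.95 to 3.10 and 2.95 to 3.17 on the wild-type arrays. No spot of a deletion-mutant array was as low as any spot of a wild-type array, although spots share an array and are no replicates of the condition. The log2 fold change was 0.28 (SE 0.058, interval 0.12 to 0.43), a 1.21-fold rise (limma, adjusted p = 0.0166).

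The dimmer probes of Cdkn1a ran the other way. Probe 2, at chr17:29235299-29235358, was designed to an Ensembl transcript and had levels of -1.53 and -1.15 in deletion-mutant cells, against -0.85 and -0.70 in wild-type cells. Probe 3, at chr17:29227986-29228045, was designed to the second RefSeq variant and had levels of -2.07 and -2.30 in deletion-mutant cells, against -1.80 and -1.85 in wild-type cells. At both, each deletion-mutant array was below each wild-type array. Their log2 fold changes were -0.56 (SE 0.155, adjusted p = 0.039) and -0.36 (SE 0.102, adjusted p = 0.0431) by limma with every probe fitted, where 56.7% of 25162 probes passed. With the probes of a gene averaged, Cdkn1a was lower, with a log2 fold change of -0.21 (limma, adjusted p = 0.0363). The call of the brightest probe was also lost under quantile normalization and under scaling to detected probes (log2 fold change 0.08 in both), without a background filter (0.28, adjusted p = 0.117), and without any 1 of the 4 arrays (0.25 to 0.31, adjusted p from 0.0566 to 0.0829). The rise reported for Cdkn1a is therefore that of 1 probe, whose call depends on the processing, and not that of the gene.

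The changes of Cdkn1b and Cdkn1a at their brightest probes were unequal within arrays, which gives the difference of the changes and does not show that each gene moved. The log2 ratio of the Cdkn1b signal to the Cdkn1a signal was -0.20 and -0.12 on the deletion-mutant arrays, against 0.57 and 0.62 on the wild-type arrays, a difference of -0.75 (exact two-sided permutation p = 0.333, the smallest possible). Cdkn1c, which encodes p57 and is imprinted, was read by a probe at chr7:150644753-150644812 that was well above background on 0 of 4 arrays. Its levels were -4.94 and -5.41 in deletion-mutant cells and -5.78 and -5.56 in wild-type cells, and no fold is given.

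Promoters are shown for the inhibitors that passed the test, since Cdkn1a has more than 1 start and Cdkn2d and Cdkn1b moved in opposite directions. The sequences are from RefSeq on GRCm38.p6, from 250 bases before to 50 bases after each start, and 7 of the 10 genes had at least 1 entry (11 promoters). Ccnd1, Ccnd2 and Cdkn1c had none. Capitals mark 1 motif in each, searched on both strands. For the first Cdkn1a start (chr17:29090729-29091028, plus strand) it is a pair of p53 half-site cores, the letters CATG and again CATG with their starts 10 bases apart and any bases between. For the second Cdkn1a start (chr17:29093519-29093818, plus strand) and for Cdkn2d (chr9:21291160-21291459, minus strand) it is GGGCGG, the box bound by Sp and KLF factors. For Cdkn1b (chr6:134920151-134920450, plus strand) it is CCAAT.
Cdkn1a first start: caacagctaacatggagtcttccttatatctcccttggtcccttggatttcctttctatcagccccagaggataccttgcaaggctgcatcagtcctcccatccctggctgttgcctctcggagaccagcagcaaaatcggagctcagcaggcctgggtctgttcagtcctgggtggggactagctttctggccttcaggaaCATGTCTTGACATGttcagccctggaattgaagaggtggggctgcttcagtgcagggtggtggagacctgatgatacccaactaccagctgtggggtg
Cdkn1a second start: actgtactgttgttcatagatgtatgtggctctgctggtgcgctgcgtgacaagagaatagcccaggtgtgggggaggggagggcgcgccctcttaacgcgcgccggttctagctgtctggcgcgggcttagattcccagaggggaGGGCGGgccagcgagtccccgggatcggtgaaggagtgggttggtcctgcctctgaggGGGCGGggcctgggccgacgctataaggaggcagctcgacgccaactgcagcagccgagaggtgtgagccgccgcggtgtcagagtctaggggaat
Cdkn2d: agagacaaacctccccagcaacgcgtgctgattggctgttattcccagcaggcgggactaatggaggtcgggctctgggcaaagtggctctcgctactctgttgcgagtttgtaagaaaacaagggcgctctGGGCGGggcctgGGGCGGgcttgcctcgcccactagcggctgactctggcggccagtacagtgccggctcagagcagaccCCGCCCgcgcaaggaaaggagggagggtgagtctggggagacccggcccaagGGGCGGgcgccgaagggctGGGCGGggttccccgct
Cdkn1b: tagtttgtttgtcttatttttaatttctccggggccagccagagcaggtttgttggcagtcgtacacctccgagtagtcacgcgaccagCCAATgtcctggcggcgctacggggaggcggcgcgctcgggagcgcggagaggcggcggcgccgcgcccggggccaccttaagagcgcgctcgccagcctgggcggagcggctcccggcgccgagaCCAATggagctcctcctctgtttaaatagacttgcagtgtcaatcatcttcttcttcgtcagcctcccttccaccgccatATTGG

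The starts of Cdkn1a were 2790 bases apart. Of all 32851 promoters of the same length, 0.712% held such a pair of cores, and the first start of Cdkn1a was 1 of them. GGGCGG was found 2 times at the second Cdkn1a start, 5 times at Cdkn2d and 1 time at Cdkn1b, and 35.7% of all promoters held it. CCAAT was found 3 times at Cdkn1b and 1 time at Cdkn2d, and 37.4% of all promoters held it. None of the 11 promoters held the AP-1 letters TGANTCA, the TATA box letters TATAAA or the E2F letters TTTCGCGC. Of all promoters, 7.81%, 13.6% and 0.323% held them, so their absence from 11 promoters says little. These matches describe the letters in a window and not binding. The probes that disagreed for Cdkn1a are given on mm9 and the starts on GRCm38.p6, so the probes were not assigned to a start.

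Of the INK4 inhibitors, Cdkn2d (p19INK4d) rose and Cdkn2c (p18INK4c) did not pass the test. Cdkn2d was read at chr9:21092934-21092993 on the minus strand, by a probe with these last 30 bases.
Cdkn2d probe: aggtttccagtctgttgtacagagtttgaa
Its processed brightness was 3814 and 4225 units in deletion-mutant cells, against 2169 and 2298 units in wild-type cells. The levels were 3.54 and 3.59 in deletion-mutant cells, against 2.65 and 2.65 in wild-type cells, so the groups were separated by far more than the spread within them. The log2 fold change was 0.91 (SE 0.056, interval 0.76 to 1.07), a 1.88-fold rise with an interval of 1.69 to 2.09 (limma, adjusted p = 0.000824), and 16.4% of features had a larger one in absolute size. Cdkn2c, read at chr4:109333508-109333567 on the minus strand, had levels of 2.71 and 2.53 in deletion-mutant cells and of 2.57 and 2.62 in wild-type cells. The groups overlapped, and the log2 fold change was 0.02 (SE 0.083, interval -0.21 to 0.25, limma adjusted p = 0.84). Within arrays, the log2 ratio of the Cdkn2d signal to the Cdkn2c signal was 0.84 and 1.06 on the deletion-mutant arrays, against 0.08 and 0.03 on the wild-type arrays, a difference of 0.89 (exact two-sided permutation p = 0.333, the smallest possible).

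Cdkn2a and Cdkn2b, neighbours on chromosome 4, were at background. Cdkn2a was read by probes at chr4:88920405-88920464 and chr4:88920543-88920602, and neither was well above background on any array. Their levels lay between -5.65 and -4.94 in deletion-mutant cells and between -5.70 and -4.68 in wild-type cells. The second probe of Cdkn2b (chr4:88952720-88952779) was likewise at background on all 4 arrays. Its first probe (chr4:88952276-88952335) had levels of -5.73 and -5.54 in deletion-mutant cells and of -5.0 and -3.02 in wild-type cells, where only the second wild-type array was well above background. No fold was computed for these probes, and no level can be set for the genes beyond the background of the array.

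The chromosomal neighbours of the cyclin and inhibitor genes, chosen after their values were seen, gave the level of signal around these loci. Within 500 kb of the Ccnd1 probe 8 of 18 probes were tested, and with every probe fitted 5 passed as higher and 2 as lower, where 32.6% and 24.1% of all probes did. The higher ones were small changes beside that of Ccnd1. Cttn, which encodes cortactin, had log2 fold changes of 0.27 and 0.47 at its 2 probes, Ppfia1 of 0.46, Fadd, an adaptor of death receptors, of 0.56, and Oraov1, 9.4 kb from the Ccnd1 probe, of 0.30 (limma, adjusted p = 0.0449). Mrgprf was lower with a log2 fold change of -1.38 (limma, adjusted p = 0.00152), and Mrgprd, at background in deletion-mutant cells, was at least 2.84-fold lower. A bound of this kind sets the brighter group's mean against the higher of the dim probe's own signal and the lowest signal well above background on each array. Probes given by a bound were kept only through their brighter group. Their calls, counted here among those that passed, rest on values at background in the other group, so no p is given. The growth factor genes Fgf3, Fgf4 and Fgf15 between Ccnd1 and Fadd were at background on all 4 arrays. Within 500 kb of the first Cdkn2b probe 28 of 65 probes were tested, of which 2 passed as higher and 5 as lower, among them 6 probes for transcribed intervals without a gene name. Of those 6, 1 was higher (log2 fold change 0.61) and 5 were lower. Of the 5, 4 had log2 fold changes from -0.90 to -0.31 and 1, at background in deletion-mutant cells, was at least 1.04-fold lower. The probe at -0.90 was well above background on 3 of 4 arrays, so its fold rests in part on a value at background. Mtap, an enzyme of methionine salvage 126.1 kb from the first Cdkn2b probe, had levels of 4.34 and 4.41 in deletion-mutant cells and of 4.18 and 4.30 in wild-type cells. Its log2 fold change was 0.13 (SE 0.074, limma adjusted p = 0.203). Gm12603, at its probe 221.9 kb away, was at background in wild-type cells and at least 4.32-fold higher in those with the deletion mutant. The other Gm12603 probe and Dmrta1 were at background on all 4 arrays. Within 100 kb of the brightest Cdkn1a probe 10 of 24 probes were tested, 3 passing as higher and 3 as lower. There, 5 of 5 probes of the noncoding RNA lincP21, known to be induced by p53, were at background, and the splicing factor Srsf3 was higher with log2 fold changes of 0.63, 0.62 and 0.43 at its 3 probes. The lower ones were Cpne5, with a log2 fold change of -0.29 (limma, adjusted p = 0.025), and 2 probes for unnamed intervals. Of these 2 probes, 1 had a log2 fold change of -0.29 (limma, adjusted p = 0.0184). The other, at background in deletion-mutant cells, was at least 1.41-fold lower.

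**Figure D3:**
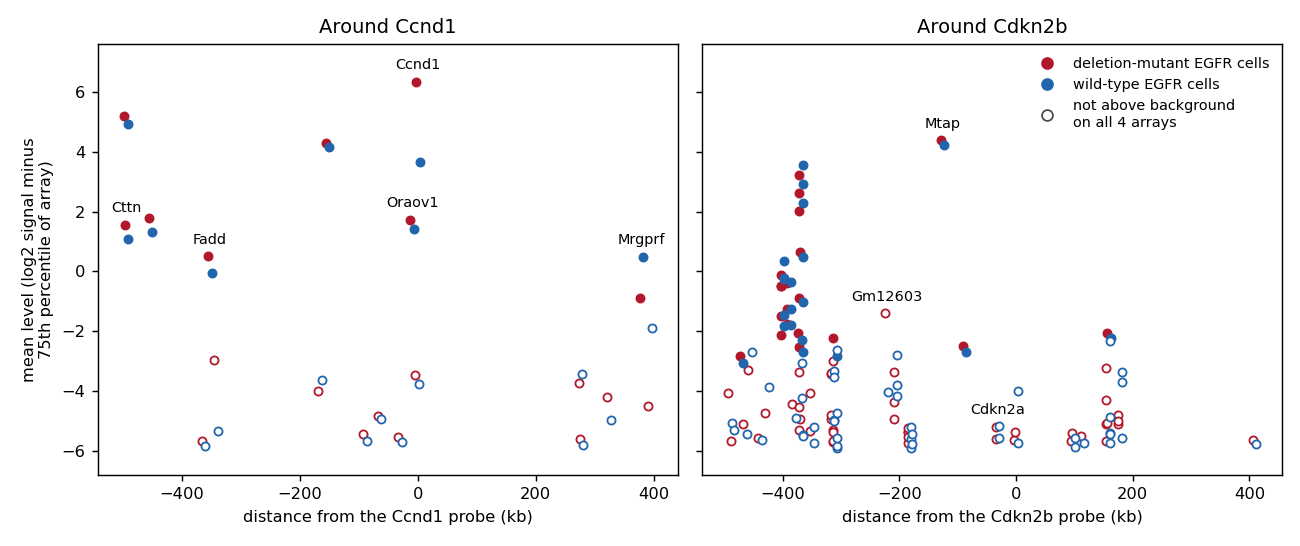
Mean level (log2 signal minus the 75th percentile of the array) of probes by distance from the Ccnd1 probe (left) and the first Cdkn2b probe (right), in deletion-mutant cells and wild-type cells. Open points were not well above background on all 4 arrays. The separation of the groups is widest at Ccnd1 among the filled points of its panel, and Mtap is the brightest point near Cdkn2b.

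The partners of the D-type cyclins and the genes downstream of them were read through lists that were written with earlier results of these data known. Of 6 genes for CDK4, CDK6, their chaperone and the CDK-activating kinase, 4 were higher and 0 lower, with a median log2 fold change of 0.25, and 1 was higher and 1 lower when arrays were scaled to detected probes. Cdk6 was 2.41-fold higher, with levels of -1.97 and -2.14 in deletion-mutant cells, against -3.51 and -3.15 in wild-type cells. It was well above background on 3 of 4 arrays, so its fold rests in part on a value at background. Its call is counted among the 4, and no p is given for it. With only probes well above background on all 4 arrays, 5 genes of this list were tested and 3 were higher. Cdc37, the chaperone that delivers CDK4 to HSP90, was 1.24-fold higher and Ccnh, the cyclin of the activating kinase, 1.19-fold higher. Cdk4 itself had levels of 6.85 and 6.91 in deletion-mutant cells and of 6.82 and 6.81 in wild-type cells (log2 fold change 0.06, limma adjusted p = 0.388). The 7 tested genes for cyclin E, cyclin A, CDK2 and its phosphatases and kinase were all higher, with a median of 0.81, led by Ccne1, 2.56-fold, Cdc25c, 2.16-fold, and Ccna2, 1.94-fold. Ccne2 and Ccna1 were at background. Of 13 genes for pocket proteins and E2F with their partners, 10 were higher and 1 lower, with a median of 0.96. The E2F family members E2f8 and E2f2 were 5.39-fold (adjusted p = 0.000172) and 5.14-fold higher (adjusted p = 0.000315). Rbl1, which encodes the pocket protein p107, was 2.62-fold higher, whereas Rb1 was 1.20-fold lower (adjusted p = 0.0189) and Rbl2 did not pass (log2 fold change -0.27). The shares higher in these lists can be read against 34.6% over all features, and the directions of their medians were the same under all 16 alternatives.

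Genes for the degradation of the inhibitors and of the D-type cyclins are given with 34.6% of all features higher and 24.2% lower as background. Of 11 tested genes listed for the degradation of p27, p21 and p57, 7 were higher and 0 lower, with a median log2 fold change of 0.26. However, 5 were higher and 3 lower when arrays were scaled to detected probes, and 4 and 1 under quantile normalization. Skp2, the F-box protein that recognises p27, was 1.96-fold higher, with levels of 1.70 and 1.51 in deletion-mutant cells, against 0.62 and 0.65 in wild-type cells (adjusted p = 0.00167). Cks1b, its cofactor, was 2.02-fold higher, and Dtl, the substrate receptor of CRL4 for p21, was 2.31-fold higher. Of 9 genes for turnover of D-type cyclins, 1 was higher and 4 lower, with a median of -0.17 that became 0.01 when arrays were scaled to their medians. Under quantile normalization 0 were higher and 5 lower, and with scaling to detected probes 0 and 6. Usp2, which removes ubiquitin from cyclin D1, was 3.14-fold lower, and Fbxo31, an F-box protein for cyclin D1, was 1.82-fold lower (adjusted p = 0.0021). Gsk3b, whose kinase marks cyclin D1 for export and degradation, was 1.27-fold lower, and Cdc27 of the anaphase-promoting complex was 1.16-fold higher.

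Factors known to activate Ccnd1, and genes of the p53 axis, moved in both directions, where 34.6% of all features were higher and 24.2% lower. Of 16 tested activators of Ccnd1, 8 were higher and 3 lower, with a median log2 fold change of 0.32. With scaling to detected probes 6 were higher and 4 lower (median 0.13), and with median scaling 11 and 3 (median 0.5). The ETS factor Etv4 was 7.51-fold higher, the AP-1 members Fosl1 and Jun were 7.49-fold and 3.34-fold higher, and Stat3, Fosl2 and Tcf7l2 were 3.43-fold, 1.81-fold and 1.53-fold lower. Of 10 genes of the p53 axis, 4 were higher and 3 lower, with a median of 0.06. Among these, Trp53 was 1.51-fold, Mdm2 1.30-fold, Gtse1 1.92-fold and Phlda3 1.28-fold higher. Btg2, Sesn1 and Zmat3 were 2.16-fold, 1.81-fold and 1.16-fold lower, and Mdm4, Ccng1 and Sesn2 did not pass. Of the p53 list, 3 were higher and 5 lower with scaling to detected probes, and 5 and 2 with median scaling. The medians of this list and of the next one, and that of the Polycomb list, changed sign under some scalings (from -0.14 to 0.24, from -0.21 to 0.17 and from -0.11 to 0.27 over the alternatives).

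The counts of these further lists, like those above, stand beside 34.6% higher and 24.2% lower of all features. Of 4 tested FOXO and FOXM1 genes, which act on Cdkn1b and on its degradation, Foxm1 was 2.28-fold higher and Foxo1 1.44-fold lower. Of 9 tested genes of the TGF-beta axis, known to induce Cdkn2b, 4 were higher and 2 lower, with a median log2 fold change of 0.21 that ran from 0.01 with scaling to detected probes to 0.39 with median scaling, where 7 were higher and 1 lower. The ligand Tgfb1 was 3.58-fold higher and the ligand Tgfb2 5.08-fold lower, the inhibitory Smad7 was 2.02-fold and Smad3 1.82-fold higher, and the receptor Tgfbr2 was 1.27-fold lower. Of 18 tested genes listed for Polycomb and the Cdkn2a and Cdkn2b locus, 7 were higher and 5 lower, with a median of 0.08. The 18 include Mtap, a neighbour of the locus and not a regulator of it. Ezh2 and Suz12 of the PRC2 complex were 2.02-fold and 1.81-fold higher, Tbx3, a repressor of the locus, was 4.42-fold higher, and Id3, Id2 and Ezh1 were 5.50-fold, 5.07-fold and 2.16-fold lower. Of 10 other cell cycle regulators, 3 were higher and 1 lower, with a median of 0.18 that became -0.02 when arrays were scaled to detected probes. They were Cdkn2aipnl, 1.83-fold higher, the phosphatase Cdkn3, 1.40-fold higher, Cdk5r1, an activator of CDK5, 1.30-fold higher, and the cyclin Ccng2, 1.34-fold lower.

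**Figure D4:**
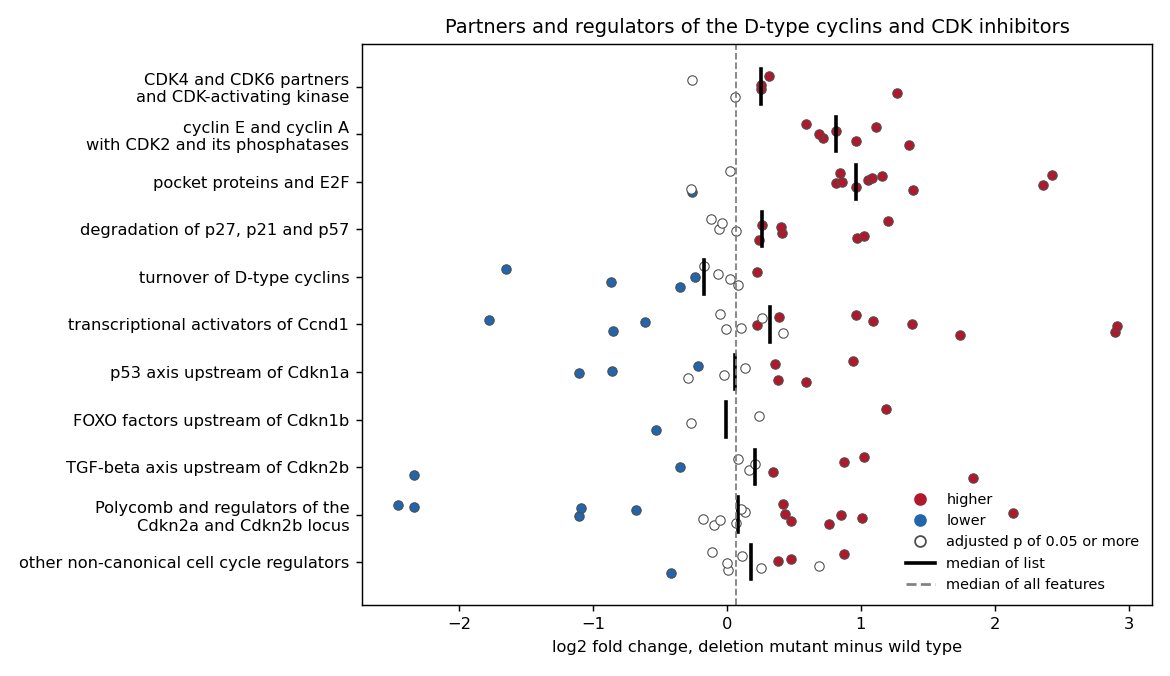
Log2 fold change, deletion mutant minus wild type, of each tested gene of the 11 lists of partners and regulators. Filled points passed as higher or lower, black bars are the medians of the lists and the dashed line is the median of all features, 0.07. All 7 points of the list for cyclin E and cyclin A and 10 filled points of the 13 for pocket proteins and E2F lie right of the line, and the other lists spread to both sides of it.

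The genes most like Ccnd1 and Cdkn1b over the arrays were found by the Euclidean distance of log2 levels centred on their mean over the 4 arrays, among 11904 named genes. Nearest to Ccnd1 were Smim3 at 0.079, Flrt3 at 0.080 and Kcnn4, a calcium-activated potassium channel, at 0.102. Nearest to Cdkn1b were Cpxm1 at 0.013, Cln6 at 0.015 and Ankrd23 at 0.017. The smaller distances for Cdkn1b go with its smaller change, which many genes had, and 4 arrays in 2 groups give a likeness that is mostly that of the difference between groups.

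**Figure D5:**
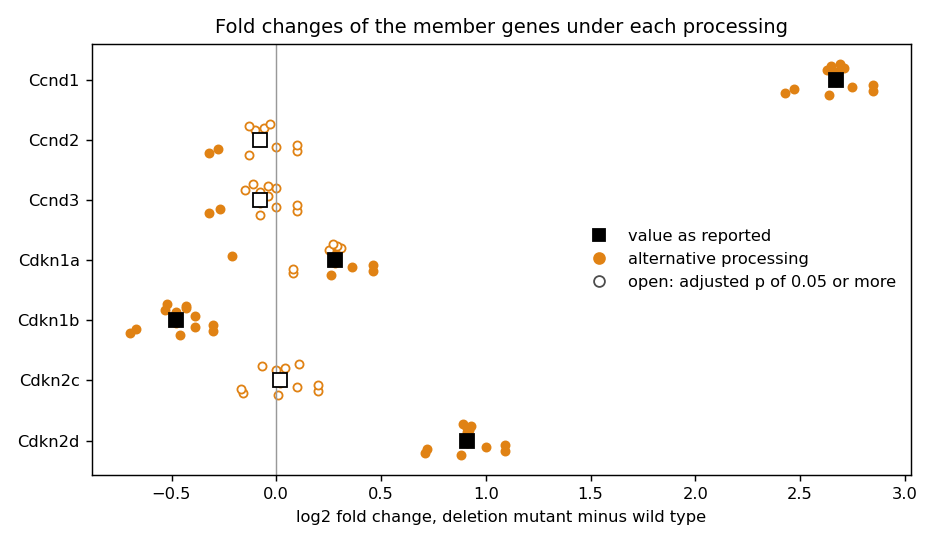
Log2 fold change of the 7 tested genes as reported (squares) and under the 16 alternatives (circles), deletion mutant minus wild type, with open symbols for an adjusted p of 0.05 or more. Ccnd1 stays between 2.43 and 2.85 and Cdkn2d between 0.71 and 1.09, all filled, while Cdkn1a runs from -0.21 to 0.46.

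The plot of the values under each processing shows which calls depend on it. Ccnd1 passed as higher under all 16 alternatives, with adjusted p-values up to 0.00745, and Cdkn2d did too, with adjusted p-values up to 0.0164. Cdkn1b passed as lower under 15, with log2 fold changes from -0.70 to -0.30, and missed the threshold only without a background filter, where its log2 fold change was still -0.48 (limma, adjusted p = 0.0553). Cdkn2c passed under none.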

How the data were processed

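Messenger RNA was measured on 4 Agilent 1-colour arrays, labelled with Cy3 per the labels, 2 of deletion-mutant and 2 of wild-type EGFR cells. Per the file headers, Feature Extraction 10.10.1.1 (protocol GE1_1010_Sep10, probes on mm9) gave a background-subtracted, detrended intensity for each spot, the raw and local background intensity, and flags of 0 or 1. The authors also deposited log2 values, which equalled the log2 processed intensity plus 1 constant per array (within 0.01 for 100% of probes). The sources used here do not name a test by the authors.

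Here, spots marked as uneven or as population outliers were left out (127 and 122 on the deletion-mutant arrays, 116 and 142 on the wild-type arrays), log2 values were averaged over the spots of each probe, and each array's 75th percentile (327.0 and 352.0 units on the deletion-mutant arrays, 344.6 and 366.6 units on the wild-type arrays) was subtracted. Kept probes had a share of 0.5 or more of their spots well above background on both arrays of a group (25162 probes), and the brightest kept probe stood for a gene name (18093 features). Groups were compared with limma 3.58.1 in R 4.3.3 (lmFit and eBayes, residual degrees of freedom 2, prior 2.18), with the Benjamini and Hochberg adjustment across the features and a threshold of 0.05. The same steps were tested on simulated data, where far fewer features were changed than passed here. Of 50 changes of each size, 1 was recovered at a log2 fold change of 0.5, 29 at 1, 32 at -1 and 47 at 2. There were 8 false calls. Python 3.11.15 with pandas 2.3.3 made the tables, and matplotlib 3.10.9 drew the figures.

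The members and the 11 lists were chosen with earlier results of these data known. All member genes and probes were named, and of each list up to 3 genes per direction with the largest change past the threshold, besides those that did not pass where they are named as such. The p53 list was named in full. The genes nearest to the member that rose most and the one that fell most were named by distance. The alternatives were normexp background correction, quantile normalization, scaling to the median, to detected probes or to spike-in probes, the authors' log2 values, other filters and probe rules, an intensity trend, a block on the replicate number, and each array left out in turn.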

Additional observations from a re-analysis of the deposited data

How the results depend on the processing

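Of the counts of calls, most stayed within 1.5 times under the 16 alternatives. The number of the 7 genes lower was 3 under quantile normalization and 3 with the percentile of detected probes, 2 with the mean of a gene's probes (where Cdkn1a turned to -0.21) and 0 without a background filter, against 1. Without that filter 2 of the 7 genes passed, against 4, and 6466 features of 34816 passed (3741 higher and 2725 lower), against 10631 of 18093 (6260 and 4371), with more features tested. With the percentile of detected probes 6727 features were lower. Leaving out 1 array gave 7806 to 9566 features past the threshold (4639 to 5500 higher and 3075 to 4066 lower) and 3 of the 7 genes, 2 higher and 1 lower. The median log2 fold change of all features moved from 0.07 by 0.18 with median scaling and the authors' values and by -0.19 with the percentile of detected probes. Of the calls, 58.9% were higher as reported, 73.5% with median scaling, 65.9% with spike-in scaling, 51.1% with quantile normalization and 38.9% with the percentile of detected probes. Same-numbered arrays did not deviate together (r = 0.047 over features, 2 pairs), and with the replicate number as a block 9990 features and 4 of the 7 genes passed. The causes of these differences were not tested. Signal over background limits the inhibitors Cdkn1c, Cdkn2a and Cdkn2b to the statement that they were at background.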
